A study of Mus musculus with 4 samples.

Results

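The 78 mouse genes described here code for molecular chaperones, their co-chaperones and the factors that control them. A gene was a member if its symbol began with one of the standard family stems (Dnaja, Dnajb, Dnajc, Hspa, Hspb, Hspd, Hspe, Hsph, Hsp90, Cct, Hsf, Bag, Pfdn) or was Stub1, and if the deposited table assigned it at least 1 region of FoxO1 chromatin immunoprecipitation signal. These genes were 78 of the 11718 genes with a region, and 131 of the 16126 regions carried a member, in 136 pairs of gene and region. Each gene was given the values of 1 region, the one with the highest mean signal over the FoxO1 libraries, which left 77 regions because Hspd1 and Hspe1 share one. The choice used the signal level but not the condition. A further 23 protein-coding symbols that fit the name rule had no assigned region. Among them were Hspa5, the main Hsp70 of the endoplasmic reticulum, and Hspb2, Hspb3 and Hspb8, small heat shock proteins known from muscle.

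FoxO1 is a forkhead transcription factor, and its binding was profiled by sequencing of immunoprecipitated chromatin from whole hearts of wild type C57BL/6 male mice aged 12 weeks. The TAC mice had transverse aortic constriction, a surgical pressure load on the left ventricle, for 7 days. The Iso mice received isoproterenol, a beta-adrenergic agonist, subcutaneously at 3 mg/kg/day for 7 days. The Veh/Sham mice received vehicle injections together with a sham operation for 7 days, and this library served as the control of both models. Each condition was 1 library from a pool of 3 hearts, so there were no replicate libraries, no spread between animals and no test between conditions. A difference therefore compares 2 libraries and not 2 conditions, and a gene was called higher or lower at 1.5-fold as a rule of size. Drosophila chromatin was added to every library as a spike-in, and its use in scaling was not given in the sources used here. An input library, pooled over the samples, was not analysed here, so no signal was set against input.

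Chaperones bind unfolded or newly made proteins and help them fold, refold or reach the protease. Hsp70 proteins work in cycles of ATP hydrolysis that J proteins (Dnaj) start and nucleotide exchange factors such as the Bag and Hsp110 proteins end, and clients pass on to Hsp90 or to the ring-shaped chaperonins. In the heart, small heat shock proteins and Bag3 guard the sarcomere, and heat shock factor 1 drives the transcription of many members under stress through tandem heat shock elements in their promoters.

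Promoter windows of the members were searched on both strands for the letters of heat shock elements, bound by heat shock factors, and of the forkhead motif, bound by FoxO factors. RefSeq start site windows of GRCm38.p6, 250 bases before to 50 after the start, were at hand for 63 of the 78 genes, and 48 of these windows overlapped a region of the same gene. The letters GAANNTTC stood on either strand in 13 of 63 genes (20.6%), against 7.86% of all 32851 windows. The partner spacing TTCNNGAA stood in 6 genes (9.52%), against 8.52% of all windows. Both together, sharing a unit so that 3 units stand in a row, were found in 4 genes (6.35%), against 0.603% of all windows. The 4 genes were Hspd1, Hspe1, Hsph1 and Dnajb6, where Hspd1 and Hspe1 hold the same stretch of DNA, counted once for each gene. The forkhead core GTAAACA was found in 3 genes (4.76%), against 3.65% of all windows, and CCAAT, the letters of the NF-Y box, in 21 (33.3%), against 37.4%. Each gene took its window with the most overlap with its regions, whereas the background counts every window. Over all 82 member windows the shares were 19.5% for GAANNTTC, 12.2% for TTCNNGAA and 7.32% for 3 units in a row. They were 3.66% for GTAAACA and 35.4% for CCAAT. GAANNTTC and TTCNNGAA overlap where they share a unit, and a match describes letters, not a binding site.

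The windows below are shown because they hold the heat shock letters of genes described further on. They are Hspe1 (chr1:55087898-55088197, plus strand), Hsph1 (chr5:149636266-149636565, minus strand), Dnajb6 (chr5:29735648-29735947, plus strand), Hspb1 (chr5:135887669-135887968, plus strand) and Hspa1b (chr17:34959189-34959488, minus strand). All run 5′ to 3′ toward the gene on GRCm38.p6, and capitals mark GAANNTTC and TTCNNGAA.
Hspe1: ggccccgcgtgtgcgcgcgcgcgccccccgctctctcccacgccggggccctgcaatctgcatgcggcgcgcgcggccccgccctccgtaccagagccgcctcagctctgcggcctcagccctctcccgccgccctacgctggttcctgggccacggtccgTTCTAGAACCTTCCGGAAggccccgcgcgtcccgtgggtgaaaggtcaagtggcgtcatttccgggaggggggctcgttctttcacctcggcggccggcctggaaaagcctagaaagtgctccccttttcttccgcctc
Hsph1: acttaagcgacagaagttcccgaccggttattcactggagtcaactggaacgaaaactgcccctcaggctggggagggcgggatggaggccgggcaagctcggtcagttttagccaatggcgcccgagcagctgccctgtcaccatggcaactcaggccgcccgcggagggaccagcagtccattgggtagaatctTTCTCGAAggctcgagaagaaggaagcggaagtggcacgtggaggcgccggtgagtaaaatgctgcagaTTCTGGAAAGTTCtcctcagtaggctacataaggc
Dnajb6: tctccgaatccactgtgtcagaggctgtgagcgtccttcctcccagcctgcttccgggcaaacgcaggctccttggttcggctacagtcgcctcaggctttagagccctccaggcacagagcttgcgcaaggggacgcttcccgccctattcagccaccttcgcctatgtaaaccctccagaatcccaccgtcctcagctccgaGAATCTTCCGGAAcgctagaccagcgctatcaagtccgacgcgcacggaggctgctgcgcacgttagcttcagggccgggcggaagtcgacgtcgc
Hspb1: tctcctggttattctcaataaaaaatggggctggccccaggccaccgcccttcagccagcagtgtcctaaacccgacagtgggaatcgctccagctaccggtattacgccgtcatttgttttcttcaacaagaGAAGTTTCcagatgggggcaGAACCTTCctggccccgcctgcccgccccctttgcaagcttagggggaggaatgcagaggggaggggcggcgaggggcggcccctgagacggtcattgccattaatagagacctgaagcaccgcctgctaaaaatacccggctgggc
Hspa1b: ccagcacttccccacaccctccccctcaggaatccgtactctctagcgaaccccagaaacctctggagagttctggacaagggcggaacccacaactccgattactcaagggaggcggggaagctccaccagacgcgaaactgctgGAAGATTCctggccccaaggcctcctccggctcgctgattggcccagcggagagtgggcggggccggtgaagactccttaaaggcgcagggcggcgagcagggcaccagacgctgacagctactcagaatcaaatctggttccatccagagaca
In Hspe1 the capitals begin 89 bases before the start site, and the same letters, read on the other strand, begin 144 bases before the start of Hspd1. These genes face away from each other with start sites 216 bp apart, so 1 stretch of DNA is the promoter of both. In Hsph1 the run of 3 units lies after the start site and a single pair lies 54 bases before it. In Dnajb6 the run begins 46 bases before the start.

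The windows that hold the forkhead core beside a region are those of Dnajb12 (chr10:59879333-59879632, plus strand) and Dnajc10 (chr2:80315216-80315515, plus strand), with GTAAACA in capitals.
Dnajb12: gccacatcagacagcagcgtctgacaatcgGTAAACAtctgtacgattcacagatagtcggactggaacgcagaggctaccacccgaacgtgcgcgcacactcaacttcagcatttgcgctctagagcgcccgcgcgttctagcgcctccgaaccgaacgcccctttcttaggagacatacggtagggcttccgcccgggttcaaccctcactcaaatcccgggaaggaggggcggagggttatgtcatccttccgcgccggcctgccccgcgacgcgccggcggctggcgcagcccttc
Dnajc10: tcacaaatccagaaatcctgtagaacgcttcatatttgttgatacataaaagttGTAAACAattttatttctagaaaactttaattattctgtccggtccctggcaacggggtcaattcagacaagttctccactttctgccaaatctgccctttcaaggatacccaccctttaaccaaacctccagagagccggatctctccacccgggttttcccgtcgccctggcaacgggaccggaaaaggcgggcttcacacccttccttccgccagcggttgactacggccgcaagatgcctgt
The match stood 220 bases before the start site in Dnajb12 and 196 bases before it in Dnajc10. Neither lay inside a region, with gaps of 18 bp and 145 bp to the nearest one. The match of Dnajc6 lay 139145 bp from the nearest region of that gene. Of the heat shock letters, 13 of 15 matches to GAANNTTC and 8 of 9 matches to TTCNNGAA lay inside a region of the gene. These counts take the shared promoter of Hspd1 and Hspe1 once for each gene, and as distinct places in the genome 12 of 14 and 6 of 7 lay inside one. The windows were picked for their overlap with a region, and 48 of 63 overlapped one. Most matches to any letters could thus fall inside, and 3 forkhead matches are too few for a contrast.

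For most chaperone genes the region taken lay at their own start site and over a CpG island. Such an island is a stretch rich in CG pairs that is common at housekeeping promoters. The region taken lay within 1000 bp of the gene's own start in 52 of 78 members (66.7%, 95% Wilson interval 55.6 to 76.1), against 56.5% of all genes. It overlapped a CpG island in 67 members (85.9%, interval 76.5 to 91.9), against 76.5% of all genes. Some region, not always the highest one, lay that close to the start in 65 members (83.3%), against 72.4% of all genes. The 13 without one were Dnaja3, Dnajb5, Dnajb7, Dnajb13, Dnajb14, Dnajc6, Dnajc17, Hsf2bp, Hsp90b1, Hspa9, Hspb6, Hspb7 and Pfdn4. By the deposited distances their assigned signal lay outside that window. RefSeq promoter windows of Dnajb5 and Hspb6 nevertheless lay wholly inside the region of the gene, so the 13 holds only for those distances. In 12 members (15.4%), against 17.3% of all genes, the authors called no interval in any FoxO1 library at the region taken. Of these 12, 6 were among the 52 at their own start, so a region is not always a called FoxO1 interval.

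Of the 26 members whose value came from elsewhere, 17 had a region within 1000 bp of another gene's start site (65.4%), against 54.8% of such cases over all genes. The region of Hspa9 lay 22518 bp from its start, at the start of Etf1. The region of Dnajb13 lay 21496 bp away, at Ucp2, and that of Dnaja3 4399 bp upstream, at Coro7. Dnajb7 shared its region with St13 and Xpnpep3, and St13 is itself a partner of Hsp70. Dnajc6 was assigned a region 151237 bp from its start, at Leprot. In all, 56 members (71.8%) shared their region with another gene, against 65.7% of all genes, so the value of such a region cannot be given to 1 gene alone.

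**Figure D1:**
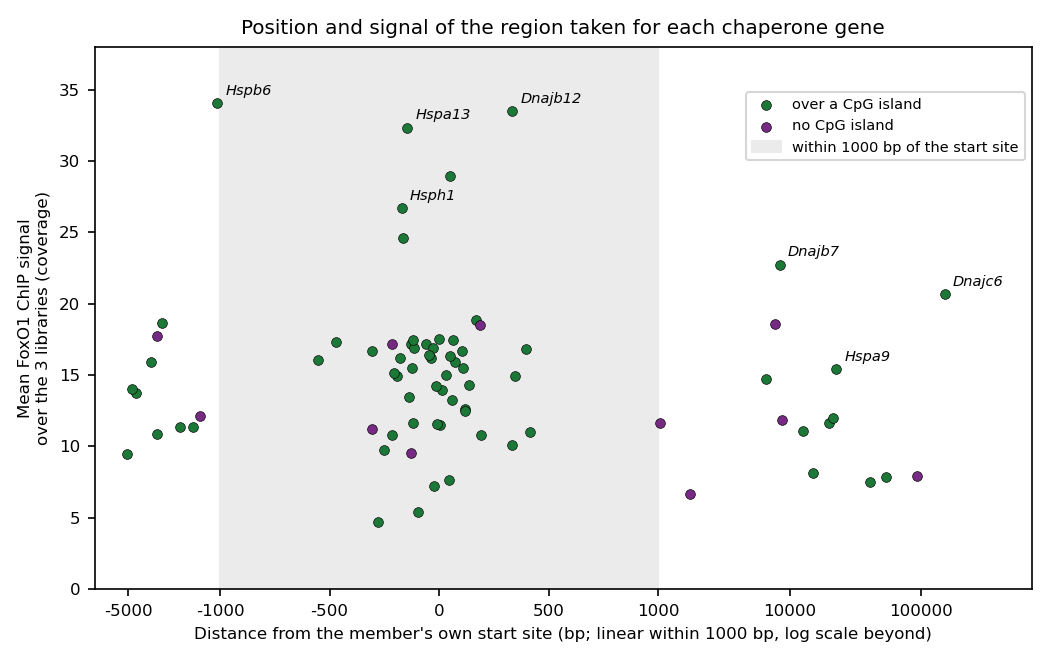
Mean FoxO1 signal over the 3 libraries (vertical axis, coverage) against the distance of the region's middle from the member's own start site (horizontal axis, bp), 1 point per gene. Of the 78 points, 52 lie in the grey band within 1000 bp of the start, and Hspa9 and Dnajc6 are among those far from it.

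FoxO1 signal at chaperone genes was highest in TAC for most members, and all genes with a region showed nearly the same shares. The median mean signal (average fragment coverage over the region) of members was 18.3 in TAC, 13.3 in Iso and 11.5 in Veh/Sham. Over all 11718 genes it was 16.7 in TAC, 13.3 in Iso and 10.8 in Veh/Sham. The TAC library was the highest of the 3 for 53 members (67.9%), Iso for 17 (21.8%) and Veh/Sham for 8 (10.3%), and over all genes these shares were 67.1%, 24.4% and 8.42%. The authors called an interval in 54 members in TAC (69.2%), 36 in Iso (46.2%) and 55 in Veh/Sham (70.5%), and in 61.7%, 50.9% and 66.4% of all genes in the same order. The library with the highest signal, TAC, was thus not the one with the most calls. All 3 libraries had a call in 31 members and none had one in 12. The whole library moved as well: peak depths summed over all regions were 351237 in TAC, 312197 in Iso and 245382 in Veh/Sham. In whole heart, more cells with FoxO1 on a region and more FoxO1 per cell cannot be told apart. Of 12 cardiomyocyte genes used as a tissue check only Tnni3 had a region, and FoxO1 signal does not measure expression.

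**Figure D2:**
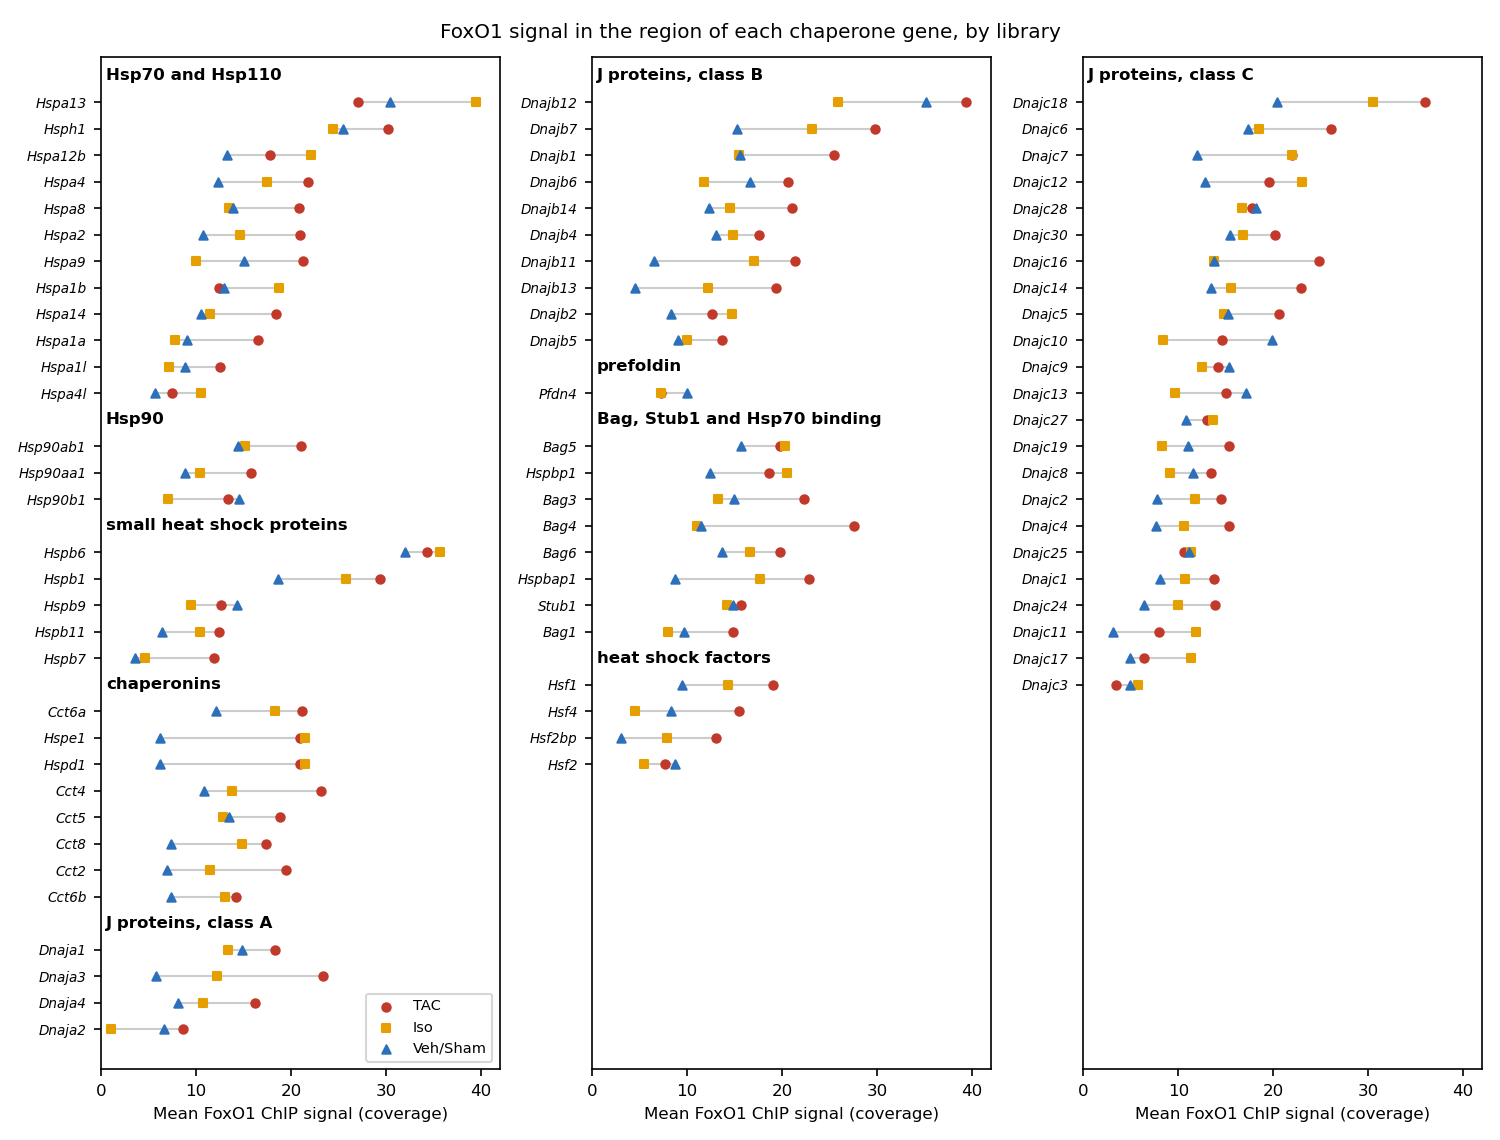
Mean FoxO1 signal (coverage) of each of the 78 members in TAC (circles), Iso (squares) and Veh/Sham (triangles), 1 library each, grouped by family and sorted by the mean of the 3 libraries. Most circles lie to the right of the triangles, and Hspb6, Dnajb12, Hspa13, Dnajc18 and Hsph1 reach the highest levels.

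TAC against Veh/Sham asks what pressure load did to FoxO1 at these genes. The median log2 ratio of the members was 0.56 (95% order-statistic interval over genes 0.46 to 0.75), against 0.53 over all genes. At 1.5-fold, 36 of 78 members (46.2%) were higher in TAC, beside 46.1% of all genes, and 0 were lower, beside 2.78%. Both shares lie near or under the background. After recentring, the subtraction of the median ratio over all regions (here 0.59 on the log2 scale), 10 members were higher, beside 12.6% of all genes, and 12 were lower, beside 14.7%. The ratio of summed peak depths was 1.43, and the exact 95% counting interval of the peak ratio excluded it in 8 members, beside 9.84% of all genes. It lay above in Hspd1, Hspe1, Dnaja3 and Dnajb13 and below in Hspa13, Hsph1, Hspb6 and Pfdn4. These intervals cover counting error only, and sequenced fragments that carry no molecular identifier may be copies. They also treat each peak depth as a raw count, and whether the depths were scaled was not given in the sources used here.

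Iso against Veh/Sham asks the same of beta-adrenergic stimulation, against the same control library. The median log2 ratio was 0.22 (interval 0.07 to 0.42), against 0.26 over all genes. There were 19 members higher in Iso, beside 25.3% of all genes, and 6 lower, beside 5.4%. After recentring by 0.30, the counts were 10 higher, beside 12.3% of all genes, and 13 lower, beside 13.2%. The counting interval excluded the ratio of summed peak depths, 1.27, in 11 members, beside 7.13% of all genes. It lay above in Hspd1 and Hspe1 alone, and below in 9 members, among them Dnajc10, Dnajc13, Dnajb12, Dnajb6, Hsph1 and Hsp90b1.

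TAC against Iso compares the models without their common control. The median log2 ratio was 0.41 (interval 0.26 to 0.51), against 0.28 over all genes. There were 24 members higher in TAC, beside 27.3% of all genes, and 2 lower, Dnajc3 and Dnajc17, beside 5.91%. After recentring by 0.29, the counts were 7 higher, beside 12.3% of all genes, and 7 lower, beside 13.5%. The counting interval excluded the ratio of summed peak depths, 1.12, in 8 members, beside 11.8% of all genes, above it in Hspa8, Hspa9 and Dnaja2 and below it in Hspa13, Hspa4l, Dnajc12, Dnajc17 and Bag5.

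The ratios to Veh/Sham varied with the Veh/Sham level itself. For the 24 members below the median Veh/Sham signal of all regions the median log2 ratio was 0.92 for TAC and 0.70 for Iso, and for the 54 at or above it 0.49 for TAC and 0.08 for Iso. Over all genes the low class gave 0.95 for TAC and 0.59 for Iso, and the high class 0.41 for TAC and 0.15 for Iso. Veh/Sham is the divisor of both ratios, and its part in this pattern was not tested.

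**Figure D3:**
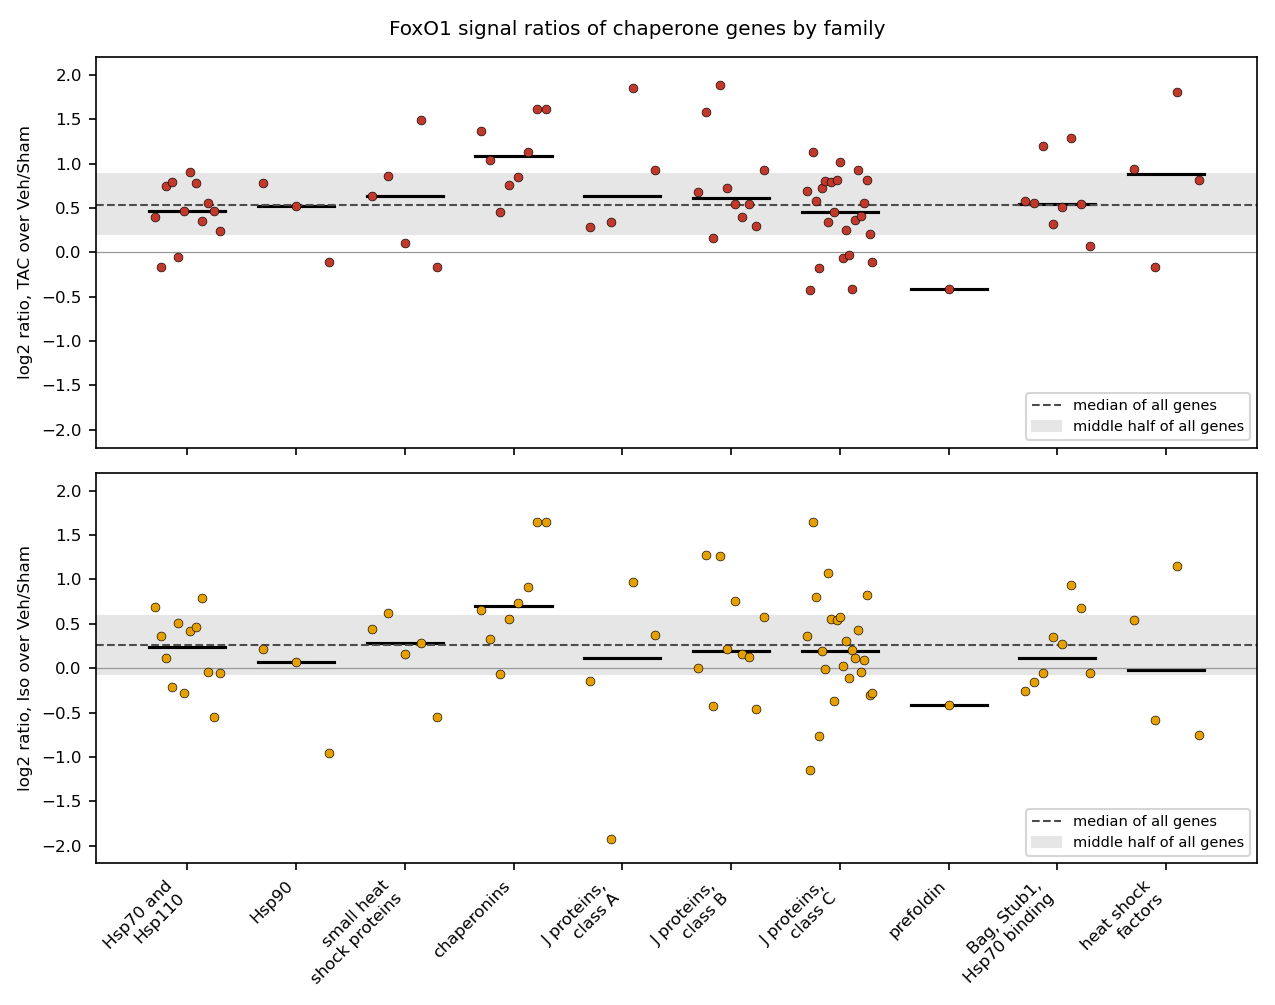
Log2 ratio of FoxO1 signal for each member by family, TAC over Veh/Sham (upper panel) and Iso over Veh/Sham (lower panel), with a pseudocount of 1. Thick bars are family medians, the dashed line is the median of all 11718 genes (0.53 and 0.26) and the grey band spans their quartiles. The chaperonins lie above the dashed line in both panels apart from Cct5, and the J proteins of class C spread to both sides.

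Heat shock factors are transcription factors, and heat shock factor 1 switches on many of the other members under stress. At the start of Hsf1, the main stress-responsive factor, the mean signal was 19.1 in TAC, 14.3 in Iso and 9.44 in Veh/Sham. The log2 ratio was 0.94 for TAC and 0.55 for Iso over Veh/Sham, and the TAC value was the highest of the 3. Of the 4 genes in this group, 3 were higher and 0 lower in TAC than in Veh/Sham, and 1 was higher and 2 were lower in Iso. After recentring, 1 was higher and 1 lower in TAC, and 1 higher and 2 lower in Iso. For this and every family below, the shares over all genes were 46.1% higher and 2.78% lower in TAC. In Iso they were 25.3% higher and 5.4% lower. After recentring they were 12.6% higher and 14.7% lower in TAC, and 12.3% higher and 13.2% lower in Iso. Hsf2, which forms mixed trimers with Hsf1, was low at 7.61 in TAC, 5.44 in Iso and 8.67 in Veh/Sham. For Hsf4, known from the lens, the region taken lay 5096 bp upstream at Fbxl8 and Tradd and gave 15.5 in TAC, 4.52 in Iso and 8.33 in Veh/Sham. At the start of Hsf4 itself the signal was 6.75 in TAC, 7.50 in Iso and 6.67 in Veh/Sham, with no such order. Hsf2bp, a binding partner of Hsf2 and not a factor itself, had a region 93637 bp from its start with no call in any library. It held 13 in TAC, 7.86 in Iso and 3.00 in Veh/Sham.

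The Hsp70 and Hsp110 family had 12 members, of which 4 were higher in TAC than in Veh/Sham and 2 higher in Iso, with median log2 ratios of 0.46 for TAC and 0.24 for Iso. After recentring, 0 were higher in either model, 2 were lower in TAC and 1 was lower in Iso. Of all genes, 46.1% were higher in TAC and 25.3% in Iso, and after recentring 14.7% were lower in TAC and 13.2% in Iso. Hspa13, a microsomal Hsp70 also called Stch, had the strongest signal of the family, with 27.1 in TAC, 39.5 in Iso and 30.4 in Veh/Sham. Iso was the highest library and TAC the lowest, and the peak depths were 54 in TAC, 98 in Iso and 66 in Veh/Sham. The peak ratio of TAC to Iso was 0.551 (95% counting interval 0.388 to 0.776). Hsph1, the Hsp110 that exchanges nucleotide on Hsp70 and whose promoter is printed above, was nearly level with 30.2 in TAC, 24.4 in Iso and 25.4 in Veh/Sham.

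Hspa8, the constitutive cytosolic Hsp70, had a broad region of 2254 bp over its start, with 20.9 in TAC, 13.5 in Iso and 13.9 in Veh/Sham. Its peak depth was 44 in TAC, 23 in Iso and 29 in Veh/Sham, and the peak ratio of TAC to Iso was 1.91 (interval 1.13 to 3.32). Hspa4, another Hsp110-type exchange factor, had 21.8 in TAC, 17.4 in Iso and 12.3 in Veh/Sham. Hspa2, an Hsp70 best known from the testis, had 21.0 in TAC, 14.7 in Iso and 10.7 in Veh/Sham. In Hspa4 and Hspa2 the Iso value lay between the others, whereas in Hspa8 Iso and Veh/Sham were nearly equal. Hspa9, the mitochondrial Hsp70, had 21.2 in TAC, 9.97 in Iso and 15.1 in Veh/Sham, in the region at Etf1.

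Hspa1a and Hspa1b, the stress-inducible Hsp70 genes, are near-identical neighbours, so reads may be split or lost between them and their values are uncertain. The region taken for Hspa1a is the start of Hspa1b, with 16.5 in TAC, 7.74 in Iso and 9.09 in Veh/Sham. The region taken for Hspa1b lay 6608 bp past its start at another gene, with 12.4 in TAC, 18.8 in Iso and 12.9 in Veh/Sham. The inducible pair thus showed TAC highest at the Hspa1b promoter and Iso highest at the more distant region. Hspa1l, the neighbour that starts beside Hspa1a, had 12.6 in TAC, 7.14 in Iso and 8.86 in Veh/Sham. Hspa12b, an atypical Hsp70 known from endothelium, had 17.8 in TAC, 22.1 in Iso and 13.3 in Veh/Sham in a region 3003 bp upstream without a CpG island.

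Hsp90 proteins take over clients such as kinases and steroid receptors from Hsp70. The inducible Hsp90aa1 had 15.8 in TAC, 10.4 in Iso and 8.79 in Veh/Sham, and the constitutive Hsp90ab1 had 21.0 in TAC, 15.2 in Iso and 14.4 in Veh/Sham, both at their starts. Their log2 ratios were 0.78 and 0.52 for TAC, and 0.22 and 0.07 for Iso, over Veh/Sham. After recentring, 0 of the 3 members were higher in either model, and 1, Hsp90b1, was lower in both. Hsp90b1, the paralog of the endoplasmic reticulum, had its only region 19913 bp from its start, with 13.4 in TAC, 7.00 in Iso and 14.5 in Veh/Sham. There the peak depth was 21 in TAC, 9 in Iso and 20 in Veh/Sham, and Iso was the lowest library.

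The J proteins deliver clients to Hsp70 and start its ATP hydrolysis. In class A, 2 of 4 members were higher in TAC than in Veh/Sham, and 1 in Iso, where 1 was lower. After recentring, 1 was higher and 0 lower in TAC, and 1 was higher and 1 lower in Iso. Of all genes, 46.1% were higher in TAC and 25.3% in Iso, and 12.6% and 12.3% after recentring. Dnaja1, the cytosolic partner of Hsp70, had 18.3 in TAC, 13.3 in Iso and 14.9 in Veh/Sham. Dnaja3, a mitochondrial J protein, had 23.3 in TAC, 12.2 in Iso and 5.73 in Veh/Sham, with peak depths of 34 in TAC, 18 in Iso and 8 in Veh/Sham. Its peak ratio of TAC to Veh/Sham was 4.25 (interval 1.93 to 10.6), in the region at Coro7. Dnaja2 had little signal, with 8.62 in TAC, 1 in Iso and 6.60 in Veh/Sham and no call in any library. The peak depth of 1 in Iso makes its ratios imprecise: the counting interval for Iso over Veh/Sham ran from 0.002 to 0.626.

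In class B, 5 of 10 members were higher in TAC, beside 46.1% of all genes, and 3 in Iso, with 0 lower in either. After recentring, 2 were higher and 0 lower in TAC, and 2 were higher and 2 lower in Iso, the lower ones being Dnajb6 and Dnajb12. Dnajb1, the classical Hsp40 induced by heat, had 25.5 in TAC, 15.5 in Iso and 15.5 in Veh/Sham. Dnajb11, a J protein of the endoplasmic reticulum, had 21.4 in TAC, 17.1 in Iso and 6.47 in Veh/Sham at its start, with peak depths of 26 in TAC, 21 in Iso and 11 in Veh/Sham. Dnajb13, known from sperm and cilia, had 19.3 in TAC, 12.2 in Iso and 4.50 in Veh/Sham at the distant Ucp2 start. For both, TAC and Iso lay above Veh/Sham. Dnajb13 had the largest log2 ratio of TAC to Veh/Sham among the members, 1.89, with a peak ratio of 3.62 (interval 1.62 to 9.18).

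Dnajb12, a J protein anchored in the endoplasmic reticulum membrane, had the second highest signal of all members, with 39.4 in TAC, 25.9 in Iso and 35.2 in Veh/Sham. Dnajb6, which suppresses aggregation and is mutated in a muscular dystrophy of humans, had 20.6 in TAC, 11.8 in Iso and 16.6 in Veh/Sham. In both genes Iso was the lowest library. The peak ratio of TAC to Iso was 1.60 (interval 1.12 to 2.31) for Dnajb12 and 2.06 (interval 1.10 to 4.01) for Dnajb6. Neither interval excluded the ratio of summed peak depths, 1.12, though for Dnajb12 the lower bound was level with it. Dnajb4 and Dnajb5, relatives of Dnajb1, varied less. Dnajb4 had 17.5 in TAC, 14.8 in Iso and 13.1 in Veh/Sham. Dnajb5 had 13.6 in TAC, 9.96 in Iso and 9.04 in Veh/Sham. Its region lay 3036 bp upstream of its start by the deposited distance, but held a RefSeq promoter window of the gene. Dnajb2, known from neurons, had 12.6 in TAC, 14.7 in Iso and 8.29 in Veh/Sham inside the gene, with Iso highest. Dnajb7, at the St13 promoter, had 29.8 in TAC, 23.2 in Iso and 15.2 in Veh/Sham.

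Class C, the most diverse one, had 23 members, with 9 higher in TAC than in Veh/Sham, beside 46.1% of all genes. After recentring, 0 were higher and 6 lower in TAC, beside 12.6% and 14.7% of all genes. In Iso, 4 were higher and 2 lower, beside 25.3% and 5.4% of all genes. After recentring, 2 were higher and 4 lower in Iso, beside 12.3% and 13.2%. Their ratios to Veh/Sham spread from -0.42 to 1.13 on the log2 scale for TAC and from -1.15 to 1.65 for Iso. Dnajc10, a disulfide reductase of the endoplasmic reticulum, had 14.6 in TAC, 8.42 in Iso and 19.9 in Veh/Sham at its start, with peak depths of 27 in TAC, 12 in Iso and 29 in Veh/Sham. Veh/Sham was the highest library and the only one with a call, and the peak ratio of Iso to Veh/Sham was 0.414 (interval 0.192 to 0.836). Dnajc13, which acts on endosomes, had the same order with 15.1 in TAC, 9.65 in Iso and 17.1 in Veh/Sham. Dnajc18 had the strongest signal of the class, with 36.0 in TAC, 30.5 in Iso and 20.4 in Veh/Sham. Dnajc12, a co-chaperone of aromatic amino acid hydroxylases, had 19.6 in TAC, 23.1 in Iso and 12.8 in Veh/Sham. Dnajc19, of the mitochondrial import motor and mutated in a human cardiomyopathy, had 15.4 in TAC, 8.31 in Iso and 11 in Veh/Sham. Dnajc6, the neuronal auxilin, had 26.0 in TAC, 18.5 in Iso and 17.4 in Veh/Sham at Leprot.

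The chaperonins enclose unfolded proteins in a ring chamber, with the Cct subunits in the cytosol and Hspd1 (Hsp60) and its lid Hspe1 (Hsp10) in mitochondria. All 8 members had their region at their own start over a CpG island. Their median signal was 20.2 in TAC, 14.3 in Iso and 7.39 in Veh/Sham. Of the 8, 7 were higher in TAC than in Veh/Sham, with a median log2 ratio of 1.08, and 5 were higher in Iso, with a median of 0.70. After recentring, 3 were higher in TAC and 3 in Iso, of which Hspd1 and Hspe1 are 1 region. A pseudocount of 5 gave 3 higher in Iso, and averaging a gene's regions gave 5 higher in TAC. Over all genes the shares were 46.1% higher in TAC and 25.3% in Iso, and 12.6% and 12.3% after recentring. Cct4, Cct5 and Cct6a lay above the median Veh/Sham signal of all regions and the other 5 members below it.

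The higher of 2 regions at the shared promoter of Hspd1 and Hspe1 had 21.0 in TAC, 21.5 in Iso and 6.20 in Veh/Sham. TAC and Iso were level and both above Veh/Sham. Peak depths were 33 in TAC, 32 in Iso and 9 in Veh/Sham, with a call in TAC and Iso and none in Veh/Sham. The peak ratio was 3.67 (interval 1.72 to 8.71) for TAC and 3.56 (interval 1.66 to 8.47) for Iso over Veh/Sham, and both lower bounds lie above the ratios of summed peak depths. This region of 343 bp (chr1:55087941-55088284, as the table gives it) holds the run of heat shock letters printed above for Hspe1. The lower region beside it, also within 1000 bp of both starts, had 10.8 in TAC, 6.87 in Iso and 6.44 in Veh/Sham. There the log2 ratio over Veh/Sham was 0.67 for TAC and 0.08 for Iso, and 0.08 and -0.22 after recentring. Among the cytosolic subunits, Cct2 had 19.4 in TAC, 11.5 in Iso and 6.94 in Veh/Sham, and Cct8 had 17.4 in TAC, 14.9 in Iso and 7.40 in Veh/Sham. Cct4 had 23.2 in TAC, 13.8 in Iso and 10.8 in Veh/Sham. Cct6a had 21.1 in TAC, 18.3 in Iso and 12.1 in Veh/Sham. Cct6b, the testis form, had 14.2 in TAC, 13 in Iso and 7.38 in Veh/Sham. Its lower region, 326 bp into the gene, had the reverse order, with 5.43 in TAC, 8.29 in Iso and 9.86 in Veh/Sham. Among the regions taken Cct5 was the exception, with 18.8 in TAC, 12.8 in Iso and 13.5 in Veh/Sham, where Iso did not exceed Veh/Sham. Tcp1, the subunit whose symbol lies outside the name rule, had 23.1 in TAC, 18.5 in Iso and 7.68 in Veh/Sham. Cct2, Cct4, Cct5, Cct6b, Cct8 and Tcp1 were given here after their values were seen.

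Small heat shock proteins hold unfolded clients without ATP. Of 5 members, grouped by symbol alone, 3 were higher in TAC than in Veh/Sham (Hspb1, Hspb7 and Hspb11) and 1 in Iso (Hspb11), with 0 lower. After recentring, 1 was higher and 1 lower in TAC, and 0 were higher and 1 lower in Iso. Of all genes, 46.1% were higher in TAC and 25.3% in Iso, and 12.6% and 12.3% after recentring. Hspb6 (Hsp20), abundant in heart, had the strongest mean signal of all members at 34.4 in TAC, 35.7 in Iso and 32 in Veh/Sham. The deposited distance put this region 1052 bp upstream of the Hspb6 start, at the neighbour BC053749. A RefSeq promoter window of Hspb6, however, lay wholly inside the region. The libraries hardly differed there, with peak depths of 75 in TAC, 77 in Iso and 85 in Veh/Sham. Hspb1 (Hsp27) had 29.4 in TAC, 25.8 in Iso and 18.7 in Veh/Sham, in a region over the promoter printed above. Hspb7, a cardiac member, had 11.9 in TAC, 4.57 in Iso and 3.57 in Veh/Sham inside the gene, with no call in any library. Hspb11 had 12.4 in TAC, 10.4 in Iso and 6.43 in Veh/Sham at its start, also with no call in any library. Hspb9, known from testis, had 12.6 in TAC, 9.47 in Iso and 14.3 in Veh/Sham at the start of Kat2a.

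Bag proteins bind Hsp70 and set the fate of its client. The group held 8 members: the Bag genes, Stub1, Hspbp1 and Hspbap1. Of these, 2 were higher in TAC than in Veh/Sham, also after recentring, namely Bag4 and Hspbap1. In Iso 2 were higher, Hspbp1 and Hspbap1, neither of them a Bag gene, and after recentring 1, Hspbap1. Hspbap1 had 22.8 in TAC, 17.7 in Iso and 8.75 in Veh/Sham. In this group 0 were lower. Of all genes, 46.1% were higher in TAC and 25.3% in Iso, and 12.6% and 12.3% after recentring. Bag3, which with small heat shock proteins steers damaged sarcomere proteins to autophagy, had 22.3 in TAC, 13.2 in Iso and 14.9 in Veh/Sham at its start. Bag4, the silencer of death domains that binds a receptor of tumor necrosis factor, had 27.6 in TAC, 11.1 in Iso and 11.5 in Veh/Sham, the largest log2 ratio of TAC to Iso, 1.24, among members at or above the median signal. Its peak depths were 34 in TAC, 18 in Iso and 18 in Veh/Sham, and the peak ratio of TAC to either was 1.89 (interval 1.04 to 3.55). That interval holds the ratios of summed peak depths, 1.12 for TAC to Iso and 1.43 for TAC to Veh/Sham. Bag1, an exchange factor of Hsp70, had 14.9 in TAC, 7.93 in Iso and 9.67 in Veh/Sham, with no call in any library. Bag5 had 19.8 in TAC, 20.3 in Iso and 15.7 in Veh/Sham, in a region 7729 bp from its start. In the region 42 bp from the Bag5 start Iso was lowest, with 14.0 in TAC, 7.50 in Iso and 14.2 in Veh/Sham. Hspbp1, an exchange factor of Hsp70, had 18.6 in TAC, 20.6 in Iso and 12.4 in Veh/Sham. Stub1 (CHIP), the ubiquitin ligase that sends Hsp70 and Hsp90 clients to the proteasome, was level at 15.6 in TAC, 14.2 in Iso and 14.9 in Veh/Sham. Pfdn4, the single prefoldin subunit with a region, had 7.22 in TAC, 7.22 in Iso and 9.94 in Veh/Sham, 15012 bp into its gene.

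Some members had several regions, and these did not always move alike. One region was assigned to 43 members and more than 1 to 35, with 5 each for Bag3 and Hspa12b. All 5 regions of Bag3 were higher in TAC than in Veh/Sham by any amount, with log2 ratios between 0.02 and 1.80, and 4 of 5 were higher in Iso. After recentring, 2 of 5 were above 0 in TAC and 2 of 5 in Iso. The largest ratio, 1.80, was inside the gene 7541 bp from the start, with 17.5 in TAC, 7.10 in Iso and 4.30 in Veh/Sham. All 5 regions of Hspa12b were higher in TAC and in Iso, with log2 ratios of 0.11 to 1.52 for TAC and 0.07 to 0.69 for Iso, and after recentring 2 of 5 were above 0 in TAC and 3 of 5 in Iso. The largest ratio there was 7279 bp from the start, with 22.8 in TAC, 12.1 in Iso and 7.31 in Veh/Sham, whereas the region at the start was level at 12.7 in TAC, 12.3 in Iso and 11.7 in Veh/Sham.

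**Figure D4:**
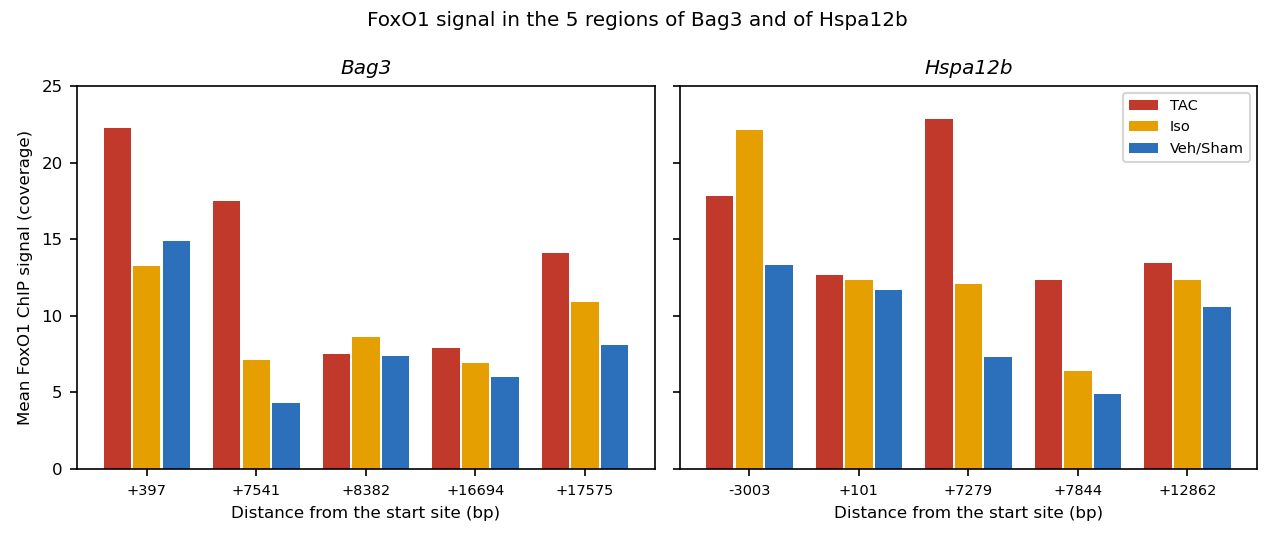
Mean FoxO1 signal (coverage, bars from 0) in the 5 regions of Bag3 (left) and of Hspa12b (right) in TAC, Iso and Veh/Sham, 1 library each, ordered by distance from the start site in bp. The TAC bar is above the Veh/Sham bar in every region, by the most at 7541 bp in Bag3 and at 7279 bp in Hspa12b.

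Folding genes outside the name rule were read from 4 lists. Of 22 cytosolic partners of Hsp70, Hsp90 and the chaperonins, 17 had a region, of which 11 were higher and 0 lower in TAC than in Veh/Sham (median log2 ratio 0.74), and 4 were higher and 0 lower in Iso. Of 16 folding genes of the endoplasmic reticulum, 15 had a region, with 9 higher and 0 lower in TAC (median 0.68) and 6 higher and 1 lower in Iso. Of 11 mitochondrial genes, 10 had a region, with 4 higher and 0 lower in TAC (median 0.35) and 2 higher and 1 lower in Iso. Of 12 regulators of the unfolded protein response, all had a region, with 6 higher and 0 lower in TAC (median 0.66) and 1 higher and 2 lower in Iso. These counts stand beside the same backgrounds of 46.1% higher and 2.78% lower in TAC, and 25.3% higher and 5.4% lower in Iso. After recentring, the backgrounds were 12.6% higher and 14.7% lower in TAC, and 12.3% higher and 13.2% lower in Iso. After recentring, the cytosolic list had 2 higher and 0 lower in TAC and 2 higher and 0 lower in Iso. The list of the endoplasmic reticulum had 3 higher and 0 lower in TAC and 3 higher and 1 lower in Iso. The mitochondrial list had 1 higher and 3 lower in TAC and 0 higher and 1 lower in Iso. The regulators had 0 higher and 2 lower in TAC, and 1 higher and 4 lower in Iso. More lower than higher was also the balance of all genes after recentring, and these lists are small.

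Of the 12 regulators, 7 were higher in TAC than in Iso and 0 lower, beside 27.3% and 5.91% of all genes. Their median log2 ratio was 0.65. After recentring, 4 were higher and 1 lower, beside 12.3% and 13.5% of all genes. Xbp1, the spliced transcription factor of the response, had 20.2 in TAC, 5.50 in Iso and 13.5 in Veh/Sham. Ddit3 (CHOP) had 26.2 in TAC, 15.8 in Iso and 12.6 in Veh/Sham. The region assigned to Atf4 had 15.9 in TAC, 20.6 in Iso and 7.14 in Veh/Sham, with Iso highest, but it lay 9138 bp from the Atf4 start, at the start of Rps19bp1. Among the folding enzymes, Calr (calreticulin) had 24.9 in TAC, 15.4 in Iso and 11.8 in Veh/Sham, and Serpinh1 (Hsp47), the collagen chaperone, had 21.1 in TAC, 16.2 in Iso and 7.56 in Veh/Sham. In mitochondria, the protease subunit Clpp was high and level at 32.8 in TAC, 35.0 in Iso and 33.7 in Veh/Sham. Genes named in this and the preceding paragraph were picked after their values were seen.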

How the data were processed

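FoxO1 libraries of 3 conditions, 1 each, were compared in the deposited table of merged regions. The processing notes of the submitters list BWA, SICER and genome build mm10, without versions or roles. The deposited signal values are a mean coverage per region and a peak depth per library, as the authors' table gives them, and read numbers were not given in the sources used here. A column of the deposited table (another kind of value, 1 or 0) records whether the authors called an interval. Its 6 value columns for libraries that match no sample were not used.

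The log2 ratio of mean signal took a pseudocount of 1, which understates ratios of low regions. Higher and lower mean 1.5-fold, without a test. Each gene took its region with the highest mean over the 3 libraries, and backgrounds were computed the same way over 11718 genes. Exact 95% Clopper-Pearson intervals came from peak depths, 95% Wilson intervals from shares and order statistics from medians over genes, which are not replicates. Distances are the table's and run from the region's middle: they fell within 100 bp of that computed from RefSeq start sites in 101 of 113 pairs. Table coordinates were printed as given. Motif matches used RefSeq promoter windows of GRCm38.p6.

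The members, the lists and the alternatives were chosen with earlier results of these data known. Genes were named by a rule: 29 well-known chaperone genes where they have a region, the 2 strongest per family, the 5 highest and 5 lowest ratios per comparison among members at or above the median signal (11.2), and members that share a region. Hsf2bp, Dnaja2, Dnajc3, Dnajc17, Hspb11, Hspbap1, most Cct genes and the genes of the other folding lists were named after their values were seen. The alternatives were peak depth, a pseudocount of 5, recentring on the median of all regions, leaving out the lowest 25% of regions, called regions only, the nearest region, the mean over all regions, each region once, and start sites within 5000 bp. The scripts were tested on simulated data and used pandas 2.3.3, numpy 2.4.6, matplotlib 3.10.9 and scipy 1.17.1 under Python 3.11.15.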

Additional observations from a re-analysis of the deposited data

How the results depend on the processing

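Of 80 alternative values of the main medians, counts and shares, 60 kept their direction and size, 18 moved and 2 changed sign. Subtracting the median of all regions mattered most. The member median became -0.030 in TAC against Veh/Sham, -0.080 in Iso against Veh/Sham, while TAC against Iso gave 0.11. In the same order, the counts higher were 10, 10 and 7, and the counts lower were 12, 13 and 7. The shift shared by a library decides these values, and its origin was not tested. A pseudocount of 5 gave a median of 0.46 for TAC against Veh/Sham, and 12 members higher in Iso than in Veh/Sham. It gave 12 higher and 0 lower for TAC against Iso. Peak depth gave 2 members lower in TAC than in Veh/Sham and 7 lower in TAC than in Iso. Leaving out the lowest 25% of regions left 69 members, of which 0 were lower in TAC than in Iso. Called regions gave 10 of 60 members higher in Iso than in Veh/Sham, and 0 of 56 lower in TAC than in Iso. The share at a start site was 83.3% with the nearest region and 82.1% within 5000 bp. With the nearest region, the log2 ratio of Hsf4 changed sign, to 0.15 (Iso against Veh/Sham) and -0.13 (TAC against Iso). For the 47 named members, 552 of 564 alternative values moved by no more than the counting error of the peak ratio and 10 moved further. Ratios near 0 changed sign often: 59 of the 564 values, from 32 genes, had the other sign, 33 of them after recentring, 14 with peak depth, 12 with the nearest region and 0 with a pseudocount of 5. Of these 59, the 2 of Hsf4 started past 1.5-fold. The 12 with the nearest region came from Bag5, Dnajb2, Hsf4, Hspa12b, Hspa1b and Hspb9. Medians over members at their own start, chosen after seeing the data, were 0.57, 0.20 and 0.41 in the same order of comparisons. No paired analysis was possible because each condition had 1 library, so the conditions had no more than 1 replicate number in common. Peak depths, with medians over the members of 27 in TAC, 20 in Iso and 18 in Veh/Sham, limit the precision of single ratios.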
